A study of Rattus norvegicus with 16 samples.

Results

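Pericentral Wnt target genes are genes that hepatocytes around the central vein switch on through beta catenin. Their transcript levels were followed in liver RNA from male rats of the SD stock that had been injected intraperitoneally for 28 days with saline or with xylazine at 10, 20 or 40 mg/kg. Xylazine is used to sedate animals, and the study asked how it injures the liver. The 8 genes, and the lists set beside them below, were chosen with earlier results of these data known. The 8 were taken by symbol from the deposited gene table, as known beta catenin targets of the central vein zone. They were Axin2 (gene ID 29134), Rnf43 (303412), Znrf3 (685487), Lgr5 (299802), Tbx3 (353305), Tcf7 (363595), Glul (24957) and Oat (64313). All 8 were present among the 17544 genes of the table, and all 8 passed the filter on low counts that left 12732 genes for testing.

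The study used 40 rats of the same sex and stock, and 4 livers from each of the saline, 10, 20 and 40 mg/kg groups were sequenced as mRNA, 16 libraries in all. All groups received the same schedule of injections and differed in the agent and dose. The labels do not number the rats, so p-values measure the spread between these liver samples. Expected counts per library summed to between 16059922 and 16956867, which sets the counting error of the low genes below. Hepatocyte markers were abundant in every library, with albumin (Alb) between 59080 and 77740 TPM, a length-corrected unit of transcript abundance. The 20 mg/kg liver of replicate 3 stood apart by immune markers. Its 7 Kupffer cell markers summed to 646.6 TPM, against 180.5 to 357.4 TPM over all the other livers, and results are given without it where they rest on it.

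In the canonical Wnt pathway, Wnt ligands bind Frizzled and LRP receptors at the cell surface, which stops the destruction complex from degrading beta catenin. Beta catenin then enters the nucleus and activates target genes with TCF and LEF proteins. In the liver, endothelial cells of the central vein supply Wnt2, Wnt9b and R-spondin 3, and the hepatocytes next to that vein answer with glutamine synthesis and with genes that damp the pathway itself. Axin2, Rnf43 and Znrf3 are such feedback inhibitors. Lgr5 is an R-spondin receptor, Tbx3 and Tcf7 encode transcription factors, and Glul and Oat are enzymes of nitrogen metabolism.

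The promoter windows of Axin2 and Rnf43 are shown because Axin2 was the gene of the 8 whose dose trend passed the test and Rnf43 varied with it from liver to liver. Each window runs from 250 bases before the annotated start to 50 bases after it, 300 bases in all, read 5′ to 3′ from RefSeq on the GRCr8 build. Capitals mark matches to the TCF/LEF motif, searched on both strands in 4 spellings. The spellings are CTTTGAA and, with another last base, CTTTGAT, besides CTTTGTA and, with another last base, CTTTGTT.
Axin2, chr10:94398535-94398834, plus strand: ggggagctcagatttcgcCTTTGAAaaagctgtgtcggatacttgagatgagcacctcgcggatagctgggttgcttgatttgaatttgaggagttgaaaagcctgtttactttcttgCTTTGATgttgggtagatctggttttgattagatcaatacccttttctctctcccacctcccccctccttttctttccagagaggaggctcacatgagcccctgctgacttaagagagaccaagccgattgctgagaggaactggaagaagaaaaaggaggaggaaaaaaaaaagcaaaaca
Rnf43, chr10:72963116-72963415, plus strand: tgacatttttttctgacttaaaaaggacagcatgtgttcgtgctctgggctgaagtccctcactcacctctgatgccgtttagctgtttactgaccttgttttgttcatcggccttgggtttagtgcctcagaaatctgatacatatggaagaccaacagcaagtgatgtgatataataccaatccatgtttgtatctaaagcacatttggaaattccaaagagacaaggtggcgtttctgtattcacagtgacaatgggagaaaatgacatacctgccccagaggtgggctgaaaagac
The Axin2 window held 2 matches, CTTTGAA with its first base at -232 and CTTTGAT with its first base at -132 relative to the start. No match was found in these letters of the Rnf43 window. Of all 33469 RefSeq promoter windows of the same length, 17.1% held at least 1 match and 2.12% held at least 2. Windows were found for 5 of the 8 genes. Tcf7 had 1 match at -4, 1 of the 2 Glul windows had a match on the opposite strand at -230, and the Oat window had none. Lgr5, Tbx3 and Znrf3 had no window in the table. A match is a description of letters and not a measured binding site.

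On the TPM scale, which corrects for transcript length, the 8 genes fell into levels far apart. Oat and Glul were abundant, at 260.2 ± 75.8 and 245.3 ± 63.8 TPM (SD over 16 livers). Axin2 averaged 2.55 TPM, Rnf43 2.08 TPM and Tbx3 1.95 TPM, while Tcf7 averaged 0.599 TPM, Znrf3 0.388 TPM and Lgr5 0.205 TPM. Glul and Oat overlapped each other in each of the 4 groups, and both lay above the other 6 genes without overlap in each group. Axin2, Rnf43 and Tbx3 overlapped as neighbours in each group except at 10 mg/kg, where all 4 Axin2 values (1.92 to 2.27 TPM) exceeded the Rnf43 values (0.92 to 1.84 TPM). Lgr5 was the lowest of the 8 in each group, with Znrf3 next above it. Its estimate rested on 5 to 17 counts per library, against 18 to 47 for Znrf3 and Tcf7, 48 to 301 for Axin2, Rnf43 and Tbx3, and 3973 to 12465 for Glul and Oat. In this bulk tissue, fewer cells of a type and less RNA per cell cannot be told apart.

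The genes also differed in how much livers of 1 group varied. The standard deviation of log2 CPM (counts relative to library size, scaled by TMM) within groups was 0.83 for Tbx3, higher than for 97.1% of the genes tested. It was 0.47 for Rnf43, 0.44 for Oat, 0.42 for Glul and 0.39 for Lgr5, and between 0.27 and 0.31 for Tcf7, Znrf3 and Axin2. The median over all genes tested was 0.20. By this measure each of the 8 genes had a higher SD than the median gene, and Axin2 had the lowest SD of them. The measure includes counting error, which is larger for the genes with few counts, Lgr5, Znrf3 and Tcf7. The edgeR estimate of variation with counting error set aside was 17.1% for Znrf3, 17.9% for Axin2, 18.9% for Tcf7 and 21.3% for Lgr5. The 8 genes were not compared with genes of like abundance.

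**Figure D1:**
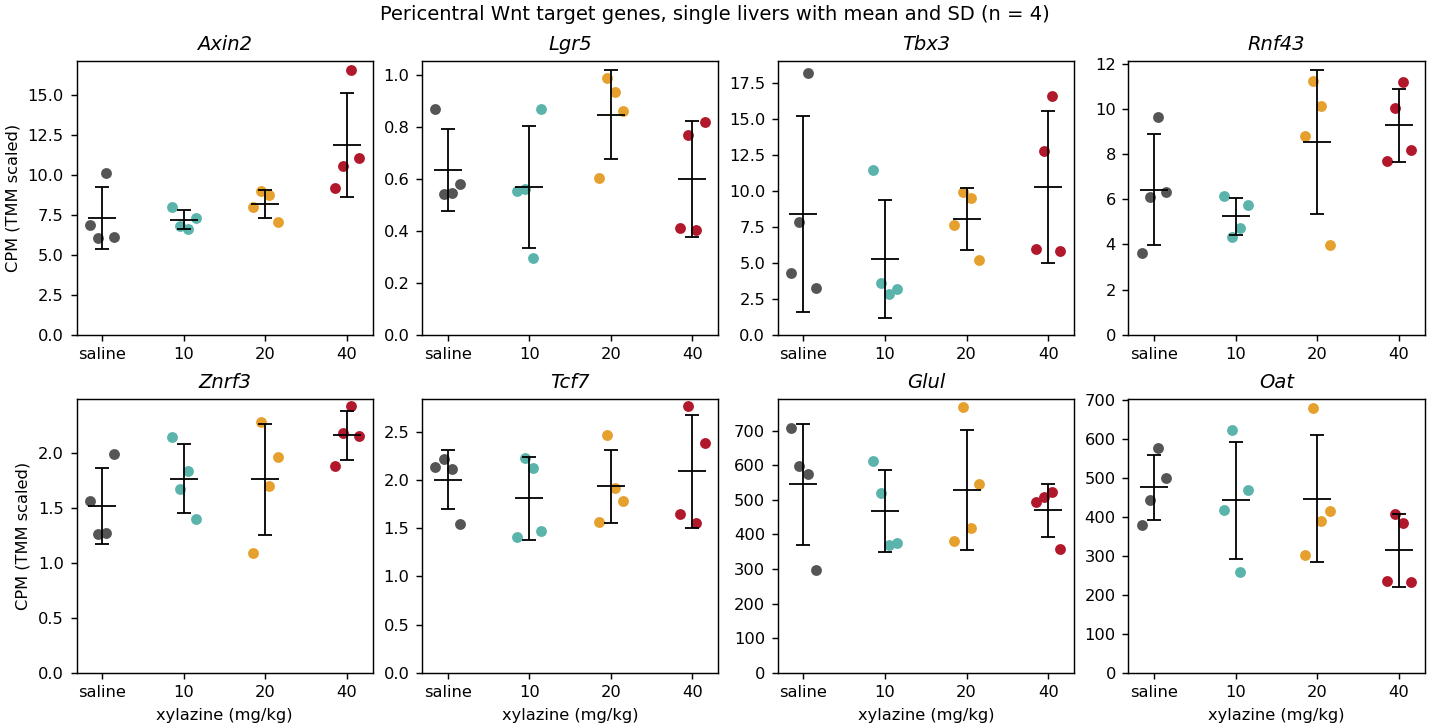
Transcript levels of the 8 pericentral Wnt target genes by dose. Each panel plots CPM (TMM scaled, linear axis from 0) for the 4 livers of each group as points, with the group mean as a bar and 1 SD as whiskers; Axin2 at 40 mg/kg (9.16 to 16.6 CPM) lies mostly above saline (6.05 to 10.1 CPM), and so does Znrf3 (1.88 to 2.42 CPM, against 1.26 to 1.995 CPM in saline).

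The dose trend of Axin2 passed the test, and its higher values were those of the 40 mg/kg livers. Axin2 encodes the scaffold of the destruction complex that Wnt signalling itself induces, and its transcript is a widely used readout of the pathway. It measured 6.88, 6.05, 10.1 and 6.12 CPM in the saline livers, and 7.99, 6.83, 6.63 and 7.33 CPM at 10 mg/kg. At 20 mg/kg the values were 7.97, 8.998, 8.74 and 7.07 CPM, and at 40 mg/kg they were 9.16, 10.6, 16.6 and 11.1 CPM. The 10 and 20 mg/kg livers lay within the saline range, and at 40 mg/kg 3 of 4 livers exceeded the highest saline liver and 4 of 4 exceeded the saline mean. Across all 16 livers the dose trend, fitted as a linear log2 change over 40 mg/kg, was 0.75 (SE 0.17, 95% interval 0.39 to 1.10), a 1.68-fold change. It passed edgeR's quasi-likelihood test with Benjamini-Hochberg adjustment over all genes (adjusted p = 0.0281). The trend intervals of Rnf43 and Znrf3 given below overlap that of Axin2, and differences between the genes were not tested.

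The contrast of 40 mg/kg with saline alone did not pass for Axin2. It averaged 11.8 ± 3.25 CPM at 40 mg/kg and 7.30 ± 1.93 CPM in saline (SD, n = 4 each), which gave 0.70 on the log2 scale (95% interval 0.31 to 1.09; edgeR adjusted p = 0.0736). At 20 mg/kg Axin2 averaged 8.19 ± 0.87 CPM and differed from saline by 0.17 on the log2 scale (edgeR adjusted p = 0.841). At 10 mg/kg it averaged 7.19 ± 0.61 CPM and differed from saline by -0.02 (edgeR adjusted p = 0.999). The trend call depended on single livers. Without 40 mg/kg replicate 3, the liver with the highest value, the trend was 0.52 (edgeR adjusted p = 0.0856). It was also not called without 40 mg/kg replicate 4 (edgeR adjusted p = 0.0651), without saline replicate 2 (0.0573) or without saline replicate 4 (0.0575), and the other 12 removals kept it. Without the 20 mg/kg liver rich in Kupffer cell markers it was 0.75 (edgeR adjusted p = 0.0298).

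Rnf43 and Znrf3 encode membrane ubiquitin ligases that remove Frizzled receptors from the cell surface. Neither passed any comparison after adjustment, and the values of both are given because their fitted changes pointed upward at 40 mg/kg. Rnf43 measured 3.64, 6.11, 9.66 and 6.31 CPM in saline and 6.14, 4.34, 4.73 and 5.73 CPM at 10 mg/kg. In the 20 mg/kg livers it was 8.82, 11.2, 10.1 and 3.996 CPM, and in the 40 mg/kg livers 7.69, 10.0, 11.2 and 8.16 CPM. The 10 mg/kg livers were the tightest group and lay in the lower part of the saline range, and at both higher doses 2 of 4 livers exceeded the highest saline liver. The Rnf43 trend was 0.68 (95% interval 0.06 to 1.29; edgeR adjusted p = 0.214). At 40 mg/kg against saline it was 0.53 (95% interval -0.09 to 1.15; edgeR adjusted p = 0.392).

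Znrf3 was measured at 1.56, 1.26, 1.27 and 1.995 CPM in saline and 2.15, 1.68, 1.83 and 1.40 CPM at 10 mg/kg. The higher doses gave 1.09, 2.28, 1.70 and 1.97 CPM at 20 mg/kg, while the 40 mg/kg livers gave 1.88, 2.18, 2.42 and 2.16 CPM. At 40 mg/kg 3 of 4 livers exceeded the highest saline liver, and the remaining liver fell inside the saline range. Its log2 fold change at 40 mg/kg over saline was 0.51 (95% interval 0.01 to 1.003; edgeR unadjusted p = 0.0459, adjusted p = 0.297). The Znrf3 trend was 0.47 (95% interval 0.03 to 0.91; edgeR adjusted p = 0.234). These values rest on 18 to 42 counts per library.

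Lgr5, the R-spondin receptor that marks the hepatocytes nearest the central vein, showed no ordered pattern over the doses. It measured 0.867, 0.540, 0.543 and 0.579 CPM in saline and 0.553, 0.559, 0.296 and 0.867 CPM at 10 mg/kg. The values were 0.604, 0.986, 0.934 and 0.861 CPM at 20 mg/kg and 0.411, 0.767, 0.404 and 0.816 CPM at 40 mg/kg. All groups overlapped, and the 40 mg/kg livers split into 2 near the bottom and 2 near the top of the range. The 40 mg/kg log2 fold change over saline was -0.08 with a 95% interval of -0.83 to 0.67 (edgeR adjusted p = 0.945), on 5 to 17 counts per library.

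Tbx3 encodes a T-box repressor that is induced by beta catenin in hepatocytes. It had the widest spread of the 8 genes, 2.84 to 18.2 CPM over the 16 livers. It measured 4.28, 7.85, 18.2 and 3.28 CPM in saline and 11.4, 3.60, 2.84 and 3.20 CPM at 10 mg/kg. Livers given 20 mg/kg had 7.61, 9.92, 9.51 and 5.23 CPM, and those given 40 mg/kg had 5.93, 12.7, 16.6 and 5.83 CPM. The highest liver of all was a saline liver, replicate 3, and 1 high liver stood out at 10 mg/kg as well. The Tbx3 trend was 0.48 (95% interval -0.63 to 1.59; edgeR adjusted p = 0.667), and without saline replicate 3 it was 1.09 (edgeR adjusted p = 0.210). Its 10 mg/kg value against saline was -0.67 (edgeR adjusted p = 0.999) and was 0.03 without that saline liver (edgeR adjusted p = 0.9995) and -1.39 without 10 mg/kg replicate 1 (edgeR adjusted p = 0.991).

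Tcf7 encodes TCF1, a DNA-binding partner of beta catenin that T cells also express. It measured 2.14, 2.22, 2.11 and 1.55 CPM in saline and 1.41, 2.23, 2.13 and 1.47 CPM at 10 mg/kg. Values of 1.57, 2.47, 1.92 and 1.78 CPM were read in the 20 mg/kg group, with 1.64, 2.77, 1.56 and 2.39 CPM in the 40 mg/kg group. All 4 groups overlapped, with the widest range at 40 mg/kg. The Tcf7 trend was 0.10 (95% interval -0.35 to 0.56; edgeR adjusted p = 0.848). In the 20 mg/kg liver of replicate 3 the 11 T and NK cell markers summed to 52.2 TPM, against 11.6 to 29.3 TPM over all the other livers. Cd4 weighed most in such sums, with a median of 11.9 TPM, and the other markers had medians of 0.12 to 1.45 TPM. Such a sum was not taken as a measure of T cells alone. The 20 mg/kg liver of replicate 3 also had the highest summed Kupffer cell markers, 646.6 TPM. The Tcf7 value of that liver, 1.92 CPM, lay in the middle of its group. The part of T cells in the Tcf7 values was not tested.

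Glul encodes glutamine synthetase, the enzyme that captures ammonia in the last hepatocyte layer around the central vein. It measured 708.8, 598.9, 575.0 and 296.4 CPM in saline and 612.7, 519.5, 369.2 and 374.4 CPM at 10 mg/kg. In the 20 mg/kg livers it was 381.7, 768.2, 417.5 and 546.7 CPM, and in the 40 mg/kg livers 493.2, 507.2, 522.0 and 356.9 CPM. All 4 values at 40 mg/kg fell inside the saline range, and none exceeded the saline mean. Glul averaged 469.8 ± 76.2 CPM at 40 mg/kg and 544.8 ± 175.5 CPM in saline (SD, n = 4 each). The log2 fold change of -0.21 had a 95% interval of -0.79 to 0.36 (edgeR adjusted p = 0.746), and the trend was -0.15 (95% interval -0.67 to 0.37; edgeR adjusted p = 0.790).

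Oat encodes ornithine aminotransferase, which feeds ornithine into glutamate next to Glul in the same zone. It measured 379.6, 444.0, 576.7 and 499.2 CPM in saline and 417.5, 621.0, 258.7 and 469.2 CPM at 10 mg/kg. The higher doses gave 301.3, 678.7, 388.2 and 414.8 CPM at 20 mg/kg, while the 40 mg/kg livers gave 235.2, 405.9, 382.9 and 231.6 CPM. At 40 mg/kg 2 of 4 livers lay below the lowest saline liver and the other 2 lay inside the saline range. Oat averaged 313.9 ± 93.5 CPM at 40 mg/kg and 474.9 ± 83.6 CPM in saline (SD, n = 4 each), which gave -0.60 on the log2 scale (95% interval -1.21 to 0.02; edgeR unadjusted p = 0.0570, adjusted p = 0.326). The Oat trend was -0.59 (95% interval -1.16 to -0.01; edgeR adjusted p = 0.257). Oat and Axin2 had fitted values of opposite sign at 40 mg/kg against saline, and neither contrast passed.

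**Figure D2:**
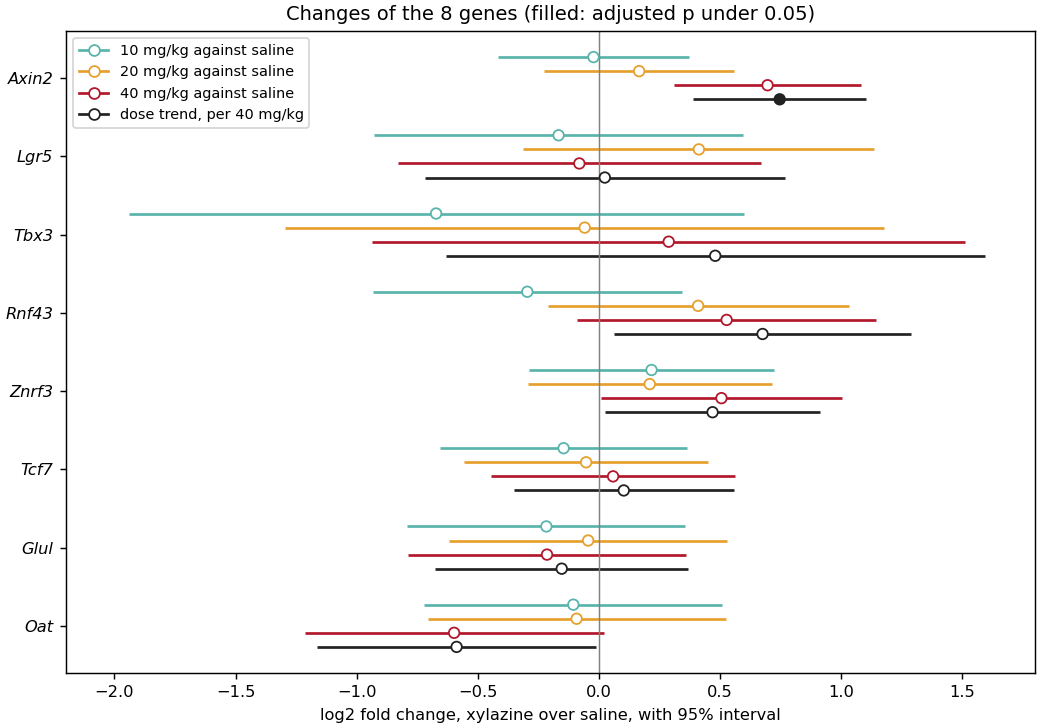
Log2 fold change of xylazine over saline for each gene (circles) with its 95% interval (lines), from the edgeR fit, for 10, 20 and 40 mg/kg and for the dose trend over 40 mg/kg. The filled circle, the Axin2 trend at 0.75, is the value with an adjusted p under 0.05; Rnf43 and Znrf3 lie above 0 and Oat below 0 in the trend without passing.

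Counted over the 8 genes, 1 was called in the dose trend, Axin2, at an adjusted p under 0.05, where 2.91% of all 12732 genes were called (1.28% higher and 1.63% lower). Since the genes were chosen with earlier results of these data known, such shares are a description and not independent support. At 40 mg/kg against saline edgeR called 0 of 8, where 1.11% of all genes were called. At an unadjusted p under 0.05, 2 of 8 (Axin2 and Znrf3) passed at 40 mg/kg, beside 16.2% of all genes, and 4 of 8 (Axin2, Rnf43, Znrf3 and Oat) passed in the trend, beside 18.8%. DESeq2 called 1 of 8 at 40 mg/kg, Axin2 (adjusted p = 0.0223), where it called 4.11% of all genes. Limma on log2 TPM plus 1 called 0 of the 5 members that its filter kept, beside 1.51% of all genes. At 20 and 10 mg/kg edgeR, DESeq2 and limma each called 0 members. Of all genes edgeR called 0% at either dose, DESeq2 0.481% at 20 mg/kg and 0.00786% at 10 mg/kg, and limma 0.0181% and 0% at the same doses. At an unadjusted edgeR p under 0.05, 0 of 8 passed at either dose, beside 9.13% of all genes at 20 mg/kg and 4% at 10 mg/kg. No member was called in the edgeR test of any difference among the 4 groups, where 0.361% of all genes were called; Axin2 had an unadjusted p of 0.00288 there (edgeR adjusted p = 0.147), and 12.3% of all genes had an unadjusted edgeR p under 0.05. DESeq2 called Axin2 in that test, beside 3.5% of all genes. In the trend 6 of 8 fitted values were positive, beside 50.4% of all genes, with a median of 0.29 beside 0.00 over all genes tested. None of the 8 separated a dose group from saline without overlap, which 9.3% of all genes did at 40 mg/kg, 4.55% at 20 mg/kg and 2.21% at 10 mg/kg.

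Axin2, Rnf43 and Tbx3 varied together from liver to liver. Over the 28 pairs of the 8 genes, 3 passed a permutation test of Pearson's r with Benjamini-Hochberg adjustment over the pairs, and those were the 3 pairs among Axin2, Rnf43 and Tbx3. The test is against an r of 0, and the share of all gene pairs with such an r is not given here. Many other genes were closer to Axin2, for which Rnf43 ranked 76 and Tbx3 ranked 115 in likeness. For Axin2 and Rnf43, r was 0.73 (permutation p = 0.00099, adjusted p = 0.0165) and Spearman's rho was 0.72 (permutation p = 0.00223, adjusted p = 0.0312) over 16 livers. For Tbx3 and Rnf43, r was 0.75 (permutation p = 0.00119, adjusted p = 0.0165) and rho was 0.73 (permutation p = 0.00153, adjusted p = 0.0312). Axin2 and Tbx3 had an r of 0.70 (permutation p = 0.00177, adjusted p = 0.0165) and a rho of 0.68 (permutation p = 0.00514, adjusted p = 0.0480). Leaving out the 2 livers farthest from the median of the gene named first gave an r of 0.75 for Axin2 and Rnf43, 0.68 for Tbx3 and Rnf43 and 0.76 for Axin2 and Tbx3.

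The relation was also present within dose groups. With each group's mean subtracted and values permuted within groups, r was 0.67 for Tbx3 and Rnf43 and 0.75 for Axin2 and Tbx3 (permutation test, adjusted p = 0.0347 for both), and 0.63 for Axin2 and Rnf43 (permutation test, adjusted p = 0.0822). Saline replicate 3 was the highest saline liver in all 3 genes, at 10.1 CPM for Axin2, 9.66 CPM for Rnf43 and 18.2 CPM for Tbx3. Among the 40 mg/kg livers, replicate 3 was highest in all 3, at 16.6, 11.2 and 16.6 CPM in the same gene order. Leaving out any 1 liver kept r between 0.71 and 0.75 for Axin2 and Rnf43, between 0.71 and 0.79 for Tbx3 and Rnf43, and between 0.64 and 0.77 for Axin2 and Tbx3. All 3 genes are read from the same libraries, and their values share any error in library scaling.

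**Figure D3:**
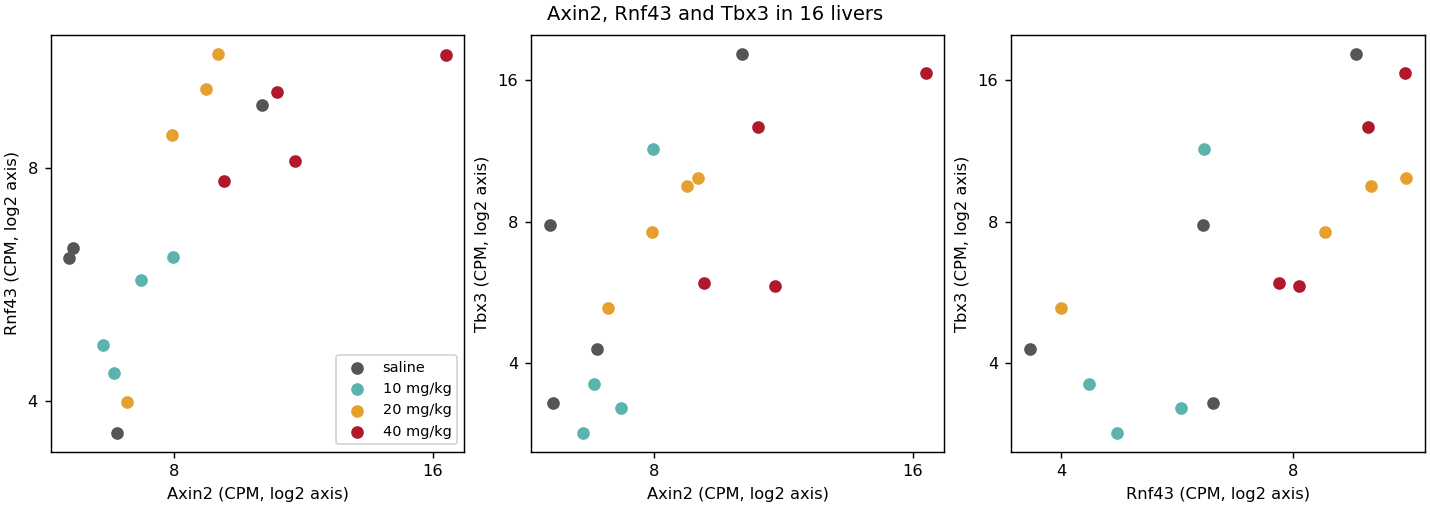
Axin2, Rnf43 and Tbx3 plotted against each other, 1 point per liver coloured by group, with both axes in CPM on a log2 scale. Points run from lower left to upper right in all 3 panels (r = 0.73, 0.70 and 0.75), with the saline liver of replicate 3 among the highest points.

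None of the remaining 25 pairs passed, with a smallest adjusted p of 0.469 for Pearson's r and 0.251 for Spearman's rho (permutation tests). Of the 28 pairs 24 had a positive and 4 a negative r. Glul, the most used protein marker of the pericentral layer, had an r of 0.11 and a rho of 0.05 with Axin2 (permutation tests, adjusted p = 0.949 and 0.934). Glul and Oat had an r of 0.43 and a rho of 0.39 (permutation tests, adjusted p = 0.469 and 0.551). Axin2 and Znrf3, both higher at 40 mg/kg in the unadjusted test, had an r of 0.43 and a rho of 0.51 (permutation tests, adjusted p = 0.469 and 0.251), and their r was 0.07 with group means subtracted (permutation test, adjusted p = 0.995). Correlations with Lgr5 rest on its 5 to 17 counts per library.

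**Figure D4:**
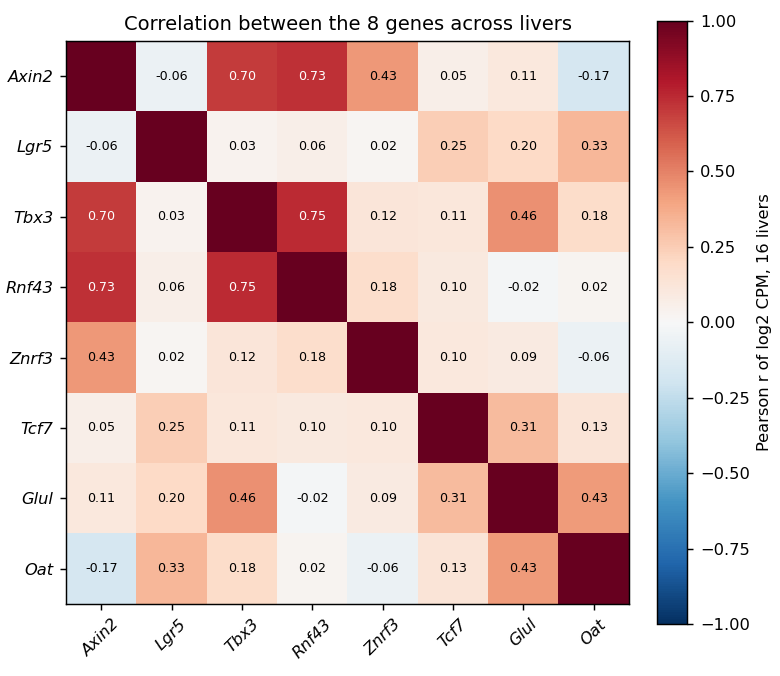
Pearson's r of log2 CPM between each pair of the 8 genes over 16 livers, with colour and printed value giving r. The block of high values joins Axin2, Tbx3 and Rnf43 (0.70 to 0.75), and the remaining pairs lie between -0.17 and 0.46.

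Compared with 12017 other tested genes by Pearson's r of log2 CPM over the 16 livers, each gene had its own nearest neighbours, given here as a description. Axin2 was closest to Fbxo6 (r = 0.93), which encodes an F-box protein of ubiquitin ligases, followed by Samm50 (0.85), a part of the mitochondrial outer membrane assembly machinery, and Esrra (0.83), the nuclear receptor ERR alpha. Subtracting group means left r at 0.86 for Fbxo6, 0.79 for Samm50 and 0.60 for Esrra. In the order of likeness to Axin2, Rnf43 ranked 76 and Tbx3 ranked 115. Rnf43 was closest to Edar (r = 0.88), Rhou (0.88) and Tcea1 (0.87), and Tbx3 to Akap2 (0.85) and Zfp69 (0.85). Oat was closest to Mgst3 (r = 0.86), Gls2 (0.86), the liver glutaminase, and Hpd (0.82), an enzyme of tyrosine breakdown. Gls2 is on the list of periportal genes used below, and Glul ranked 745 in the order of likeness to Oat. Glul was closest to Syt11 (0.80), Pms2 (0.79) and Fra10ac1 (0.78), Znrf3 to Mgat3 (0.81), Usp10 (0.79) and Wdr25 (0.76), Tcf7 to Bhmt2 (0.77), Kat2b (0.76) and Glyatl2 (0.75), and Lgr5 to Clec2dl1 (0.82), Niban3 (0.81) and Amigo3 (0.77). None of the 8 genes was among the 3 nearest neighbours of another.

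Of 75 other genes of the Wnt pathway, 72 were in the table and 50 were tested. In the dose trend 1 was called higher and 3 lower, beside 1.28% higher and 1.63% lower over all genes, with a median of 0.03. At 40 mg/kg against saline 0 were called higher and 1 lower, beside 1.11% of all genes called in either direction. None of the 3 ligands named above for the central vein was called. Wnt2 had a trend of -0.06 (95% interval -0.69 to 0.58), Wnt9b one of -0.39 (-1.15 to 0.36) and Rspo3 one of 0.26 (-0.30 to 0.83), and all 3 were low transcripts. Wnt5a, a ligand best known for signalling without beta catenin, was the gene called higher. It measured 0.116, 0.480, 0.483 and 0.708 CPM in saline and 0.430, 0.310, 0.355 and 0.267 CPM at 10 mg/kg. Livers given 20 mg/kg had 0.604, 0.801, 0.549 and 1.05 CPM, and those given 40 mg/kg had 0.822, 1.12, 1.21 and 0.991 CPM. Its trend of 1.44 (edgeR adjusted p = 0.0444) lost its call in 12 of the 16 removals of a single liver.

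Of 9 tested Wnt receptors 2 were called in the trend, Lgr4 and Lrp6. Both were lower with dose, beside 1.63% of all genes called lower. Lgr4 is the R-spondin receptor found across the lobule. It measured 80.2, 92.6, 81.6 and 102.8 CPM in saline and 71.7, 107.3, 91.9 and 89.3 CPM at 10 mg/kg. Values of 73.9, 68.4, 72.3 and 83.3 CPM were read in the 20 mg/kg group, with 65.4, 59.8, 60.3 and 67.7 CPM in the 40 mg/kg group. Every 40 mg/kg liver lay below every saline liver, and 9.3% of all genes separated these groups in either direction. The Lgr4 trend of -0.55 (SE 0.11, 95% interval -0.77 to -0.32; edgeR adjusted p = 0.0168) was called in all 16 removals of a single liver. Its contrast of 40 mg/kg with saline, -0.50 (edgeR adjusted p = 0.0440), lost its call in 11 of 16 removals. Lrp6, the co-receptor of Frizzled, averaged 75.8 ± 13.8 CPM at 40 mg/kg and 120.0 ± 19.5 CPM in saline (SD, n = 4 each), with a trend of -0.68 (edgeR adjusted p = 0.0442) that lost its call in 10 of 16 removals. Thus the R-spondin receptor of the 8 genes, Lgr5, and its relative Lgr4 had trends of 0.03 and -0.55, with intervals of -0.72 to 0.77 and -0.77 to -0.32 that overlap. The difference between the genes was not tested.

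Inside the cell, 0 of 12 genes of the destruction complex and beta catenin transduction were called by edgeR in any comparison. At an unadjusted edgeR p under 0.05, 0 of 12 passed at 40 mg/kg, beside 16.2% of all genes, and 0 of 12 in the trend, beside 18.8%. Ctnnb1, the beta catenin gene itself, averaged 136.3 ± 7.12 CPM at 40 mg/kg and 140.4 ± 3.37 CPM in saline (SD, n = 4 each). Its log2 fold change was -0.04 with a narrow 95% interval of -0.19 to 0.10. This is the transcript and not the protein, which the pathway regulates. Of 8 tested nuclear partners 1 was called lower in the trend, the corepressor Tle1, beside 1.63% of all genes. Tle1 averaged 22.1 ± 5.17 CPM at 40 mg/kg and 35.3 ± 5.22 CPM in saline (SD, n = 4 each). Its trend of -0.78 (edgeR adjusted p = 0.0360) lost its call in 5 of 16 removals. Tcf7l2, the main TCF gene of hepatocytes, had a trend of -0.08 (95% interval -0.30 to 0.14).

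Other Wnt inhibitors and other targets of beta catenin did not pass. None of the 10 tested Wnt inhibitors and none of the 5 tested further targets was called by edgeR at 40 mg/kg or in the trend. Of these, 1 inhibitor and 0 targets had an unadjusted edgeR trend p under 0.05, beside 18.8% of all genes. Nkd1 and Notum were on both lists, so the counts overlap. Notum, a secreted enzyme that inactivates Wnt ligands, measured 80.5, 78.0, 77.5 and 69.3 CPM at 40 mg/kg, against 77.2, 72.8, 79.4 and 71.8 CPM in saline. Its trend was -0.02 (95% interval -0.30 to 0.25). Nkd1, an intracellular inhibitor, had a trend of 0.37 (95% interval -0.19 to 0.93; edgeR adjusted p = 0.482). Sp5, a transcription factor gene induced directly by beta catenin, was too low to be tested. It had 10, 11, 17 and 7 counts at 40 mg/kg, against 5, 5, 9 and 2 counts in saline. In a fit without the filter its trend was 1.10 (edgeR adjusted p = 0.195).

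**Figure D5:**
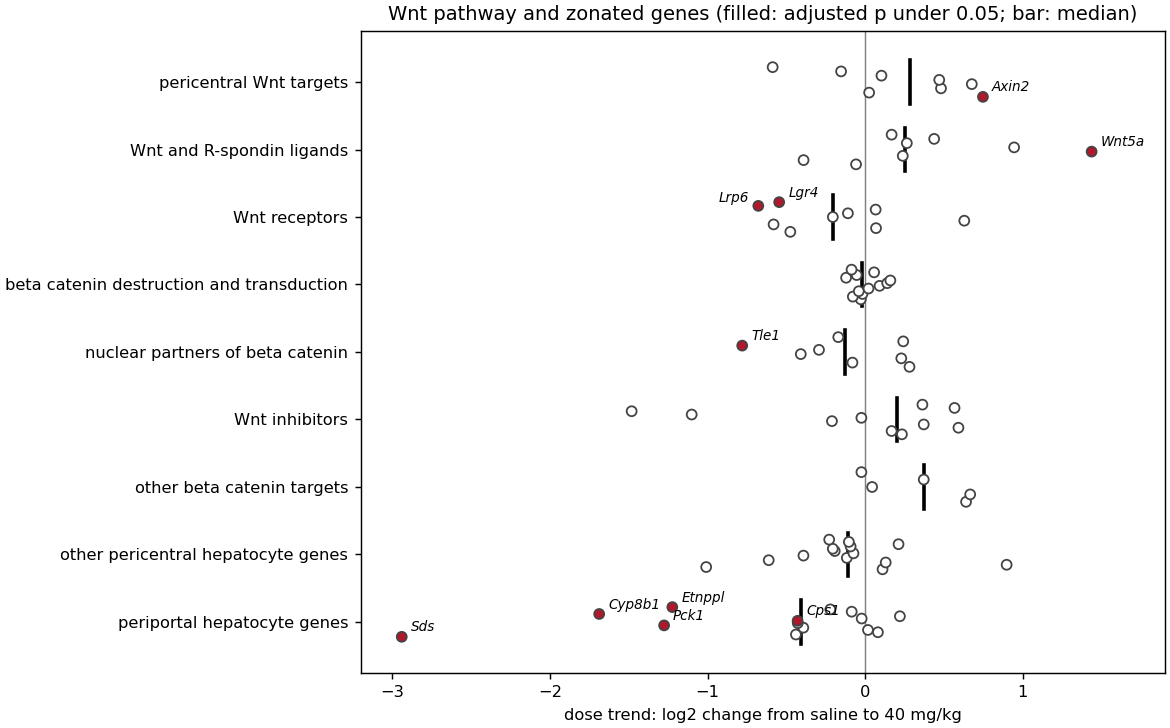
Dose trend, as log2 change over 40 mg/kg, for each tested gene (circle) of the 8 pericentral Wnt targets, of other Wnt pathway lists and of zonated hepatocyte lists; bars mark list medians and filled circles an adjusted p under 0.05. Axin2 is the filled circle among the 8, Lgr4 and Lrp6 lie to the left among the receptors, and the destruction complex genes sit close to 0.

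Other genes of the pericentral zone were set beside the 8. Of 14 such genes that are not on the list, edgeR called 0 at 40 mg/kg and 0 in the trend, beside 1.11% and 2.91% of all genes. In each, 2 of 14 had an unadjusted edgeR p under 0.05, beside 16.2% of all genes at 40 mg/kg and 18.8% in the trend. Cyp2e1, a cytochrome P450 of the central zone, had a trend of 0.11 (95% interval -0.39 to 0.61). Cyp1a2 measured 740.2, 911.5, 934.8 and 585.8 CPM at 40 mg/kg, against 2119, 1820, 1121 and 642.7 CPM in saline, and its trend of -1.01 did not pass (95% interval -1.71 to -0.30; edgeR adjusted p = 0.112). Rhbg, an ammonium transporter, and Slc1a2, a glutamate transporter, both found with Glul in the last layer, had trends of -0.12 (95% interval -0.75 to 0.51) and -0.61 (95% interval -1.28 to 0.06). Lect2 and Gulo had trends of -0.07 (95% interval -0.29 to 0.14) and -0.39 (95% interval -0.69 to -0.09; edgeR adjusted p = 0.149).

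For the other end of the lobule, 14 hepatocyte genes were listed as periportal. The zone of each, Cyp8b1 included, was assigned by the list and cannot be read from bulk livers. The list was chosen with earlier results of these data known. Of these 14 genes 5 were called lower in the trend and 0 higher, beside 1.63% lower and 1.28% higher over all genes. Their median was -0.41 beside 0.00 over all genes. Pck1, the entry enzyme of gluconeogenesis, averaged 1215 ± 337 CPM at 40 mg/kg and 2672 ± 746 CPM in saline (SD, n = 4 each; trend -1.28, edgeR adjusted p = 0.0112). Cyp8b1, an enzyme of bile acid synthesis, averaged 82.5 ± 30.7 CPM at 40 mg/kg and 275.0 ± 91.1 CPM in saline (SD, n = 4 each; trend -1.69, edgeR adjusted p = 0.0122). Sds, the serine dehydratase, had a trend of -2.94 (edgeR adjusted p = 0.0266), and Cps1, the first enzyme of the urea cycle, one of -0.43 (edgeR adjusted p = 0.0450). The call was lost in 3 of 16 removals of a single liver for Sds and in 13 of 16 for Cps1, and in 0 of 16 for Pck1 and Cyp8b1. The fifth called gene, Etnppl, had a trend of -1.22 (edgeR adjusted p = 0.0494), lost its call in 12 of 16 removals and was named after its value was seen. Over removals of a single liver the number of periportal genes called in the trend lay between 2 and 5. The difference between the periportal list and the 8 genes was not tested.

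Markers of other cell types were read beside these results. Of the cell type lists, the stellate list had 1 of 8 genes called in the trend, Pdgfrb, which averaged 27.4 ± 4.98 CPM at 40 mg/kg and 20.3 ± 1.12 CPM in saline (SD, n = 4 each; trend 0.44, edgeR adjusted p = 0.0351, lost in 5 of 16 removals). Over all genes 1.28% were called higher in the trend. Summed stellate markers ranged over 82.7 to 106.6 TPM at 40 mg/kg and 64.7 to 77.6 TPM in saline, without overlap. Of all single genes 9.3% separated these groups. Colec11 weighed most in the sum, with a median of 48.5 TPM, and the other stellate markers had medians of 1.3 to 5.8 TPM. Of the 8 stellate trends 6 were positive and 2 negative. Mesothelial markers had 0 of 7 genes called and 7 of 7 positive trends, with sums of 10.4 to 25.5 TPM at 40 mg/kg and 1.82 to 13.6 TPM in saline. Saline replicate 3, the saline liver highest in Axin2, Rnf43 and Tbx3, had the lowest mesothelial sum. Endothelial markers summed to 63.9 to 101.1 TPM at 40 mg/kg and 54.1 to 98.9 TPM in saline, with 0 of 9 tested genes called. Fcgr2b, Clec4g and Ehd3 weighed most in the sum, with medians of 23.3, 19.75 and 16.38 TPM. The other endothelial markers had medians of 0.155 to 6.635 TPM. The endothelial cells of the central vein, which make the ligands, were not read apart from other endothelium. Of the markers in these 3 lists, the mesothelial markers Upk1b and Bnc1 were each at 0 in 1 liver, and no other was at 0 in any liver. No tested gene of the hepatocyte (8), cholangiocyte (6), Kupffer cell (7) or T and NK cell (5) lists was called by edgeR at 40 mg/kg or in the trend. The part of these cell types in the Axin2 trend was not tested.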

How the data were processed

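Liver mRNA was sequenced in 16 samples, 4 each of saline and of xylazine at 10, 20 and 40 mg/kg, grouped by the labels. Per the submitters' processing notes the authors used Bowtie2, RSEM and DESeq2 with the mRatBN7.2 build; versions, roles and strandedness are not given in the sources used here. The deposited table gives RSEM expected counts, FPKM and TPM per gene and library, and count values that the authors scaled between libraries (signal). Expected counts were rounded to whole numbers and tested with edgeR 4.0.16 (R 4.3.3), using TMM scaling and a filter of 10 counts (15 in total), with quasi-likelihood tests on all 16 libraries in one fit. P-values were adjusted by Benjamini-Hochberg over 12732 genes, and genes under 0.05 were called. The trend used dose in mg/kg as a number. Deposited TPM values served for levels between genes and marker sums; FPKM and the scaled signal values deposited by the authors were not used in tests. Intervals are at 95%.

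Correlations were taken on log2 CPM (prior count 2) with 100000 permutations. The settings varied were the scaling (by DESeq2 size factors or by library total), the filter (none, or 5 CPM in 4 libraries) and the test (DESeq2 1.42.0, or limma 3.58.1 on log2 TPM with pseudocounts of 1 and 0.1, for genes at 1 TPM or more in 4 libraries). A replicate block, a fit of the compared groups alone, dose as rank and the removal of each library were also tried. The Spearman and within-group correlations, single-liver removals for the pairs, and all alternatives for genes outside the 8 were chosen after seeing the data. The test was checked on simulated data. No libraries of a group agreed within sampling noise. Promoter windows came from RefSeq (GRCr8), matched by gene ID for 5 of the 8 genes.

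The 8 genes and all lists were chosen with earlier results of these data known. Named were all 8 genes, up to 4 called genes per list, 15 pathway and zonation genes in any case, and the 3 genes most alike to each of the 8, of which 1 is not reported here. Replicate numbers did not pair livers: same-numbered libraries correlated between -0.10 and 0.28 in their deviations from group means.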

Additional observations from a re-analysis of the deposited data

Results flagged for a closer look

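Of 32 groups of 4 livers (8 genes in 4 groups), 3 held 1 liver far from the other 3, by a Dixon criterion that chance meets in about 1 in 20 groups. Lgr5 measured 0.867 CPM in saline replicate 1, and 0.540 to 0.579 CPM in the other 3 saline livers. Tbx3 measured 11.4 CPM in replicate 1 at 10 mg/kg, and 2.84 to 3.60 CPM in the other 3 livers of that dose. Tcf7 measured 1.55 CPM in saline replicate 4, and 2.11 to 2.22 CPM in the other 3 saline livers. That saline liver also had the highest summed cholangiocyte markers, 46.5 TPM, against 11.9 to 32.9 TPM over all the other livers, and their part in its Tcf7 value was not tested.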

How the results depend on the processing

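Over 32 comparisons of the 8 genes, 762 values were computed, each for 1 comparison under 1 alternative setting. Of these values 719 kept direction and call, 2 gained a call, 4 lost one and 37 changed sign. No called value was among those that changed sign. The Axin2 trend kept its call in all 9 settings other than removals (0.59 to 0.82, edgeR, DESeq2 or limma adjusted p 0.00474 to 0.0434) and in 12 of 16 removals (0.52 to 0.91, edgeR adjusted p 0.00847 to 0.0856). The number of the 8 genes called in the trend was 0 to 1 over removals. At 40 mg/kg it was 1 with DESeq2 and 0 to 1 over removals, and in the test of any dose it was 1 with DESeq2, each time Axin2. Axin2 at 40 mg/kg was called with DESeq2 (0.70, adjusted p = 0.0223) and without saline replicate 3 (0.89, edgeR adjusted p = 0.0230), and ranged over adjusted p 0.0223 to 0.177 in all settings. Over all genes, 141 were called at 40 mg/kg, against 523 with DESeq2 and 27 to 198 over removals. The cause of these differences was not tested.

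With a replicate block the Axin2 trend was 0.74 (edgeR adjusted p = 0.0267), and the block changed no call among the 8 genes. Only 5 of 16 libraries correlated best with a library of their own number. The block turned the sign of Tbx3 at 20 mg/kg (0.0857), Axin2 at 10 mg/kg (0.00965) and the Lgr5 trend (-0.00326). Limma on log2 TPM turned Tbx3 at 20 mg/kg (0.11 with a pseudocount of 1, 0.23 with 0.1) and Glul at 20 mg/kg (0.0336 with 1, 0.0339 with 0.1).

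Signs also turned in removals of single livers for 13 comparisons, none of them called. At 40 mg/kg the ranges were -0.26 to 0.11 for Lgr5, -0.0422 to 0.99 for Tbx3 and -0.11 to 0.18 for Tcf7. At 20 mg/kg they were -0.32 to 0.65 for Tbx3, -0.19 to 0.033 for Tcf7, -0.28 to 0.11 for Glul and -0.37 to 0.0555 for Oat. At 10 mg/kg they were -0.10 to 0.18 for Axin2, -0.44 to 0.0508 for Lgr5, -1.39 to 0.0293 for Tbx3 and -0.32 to 0.0816 for Oat. In the trend they were -0.0878 to 0.21 for Lgr5 and -0.0687 to 0.21 for Tcf7. The stricter filter and the TPM filter left 5 of the 8 genes, and Lgr5, Znrf3 and Tcf7 had no value there. The pairs called numbered 2 with group means subtracted, 3 by Spearman and 2 to 3 over removals. Among the other Wnt genes, 1 to 4 were called in the trend over removals and 2 to 5 in other settings. Lgr5 had the fewest counts of the 8 genes, 5 to 17 per library, and Sp5 fell below the count filter.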
